A study of Drosophila melanogaster with 6 samples.

Results

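The set described here comes from the kinase category of a comparison of sorted L3 neurons. Its members are the genes whose deposited functional category is kinase activity alone and whose mean normalized count over all libraries is at least 100, and they number 162 of the 13727 genes listed by the authors' deposited table. The category holds 271 genes, of which 109 lie below that level, 37 of them at a mean normalized count of 0. The rule also names 17 genes to leave out, but none of those carries this category alone at or above that level, so the exclusion removed 0 genes. The minimum was applied to the mean over both genotypes, so a member may reach it through one genotype alone. The members were chosen by their mean normalized count, so the level of a member is a description and was not tested.

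L3 neurons are lamina neurons, which receive input from photoreceptors and relay it deeper into the fly brain. Cells carrying a fluorescent label for this type were isolated by flow sorting of Drosophila melanogaster optic lobes at 24 h after puparium formation, and the groups were 3 dFezf1 samples and 3 WT samples. The dFezf1 samples carry a mutant allele of dFezf, the zinc finger transcription factor gene also called earmuff (erm), and the WT samples are titled FRT40, the recombination site on their chromosome. The titles carry December dates for dFezf1 and November dates for WT, so title date and genotype cannot be told apart. The series' design text describes 3 biological replicates of each genotype, with all libraries prepared and sequenced together. How the mutant cells were made, and how many animals were pooled, was not stated by the sources used here. Less RNA per cell and fewer cells of a type cannot be told apart in sorted bulk RNA.

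All values are those of the authors' deposited table, which compares dFezf1 with WT. For each gene it gives a mean abundance per genotype, a log2 fold change of dFezf1 over WT that is shrunken toward 0, its standard error (SE) and a p-value adjusted over 9387 tested genes. The mean abundance behaves as a length-scaled unit: across the 162 genes, the mean normalized count per unit of abundance had a Spearman correlation of 0.913 with exon length. Columns for single libraries carry codes that match no sample label and were not used, so no value per sample, depth or spread between replicates is given. The L3 marker erm was present, at a mean abundance of 49.2 in dFezf1 and 55.1 in WT. The pan-neuronal gene elav stood at 63.6 in dFezf1 and 52.6 in WT. The neuronal gene nSyb stood at 68.2 in dFezf1 and 44.5 in WT (log2 fold change 0.83 ± 0.41, adjusted p = 0.327). brp, also neuronal, stood at 102.5 in dFezf1 and 49.5 in WT (1.03 ± 0.41, adjusted p = 0.138). The lamina gene dac stood at 17.6 in dFezf1 and 26.9 in WT (-0.48 ± 0.28, adjusted p = 0.448) per the authors' deposited table. The log2 fold change of erm itself was -0.03 ± 0.30 (adjusted p = 0.986), so its transcript level does not check the genotype labels. Over 6 markers of other lamina neurons the summed mean abundance was 2.72 in dFezf1 and 0.433 in WT. Most of that sum in dFezf1 was svp, at 2.02 in dFezf1 and 0.0408 in WT. bab2 and ap were also listed as higher in dFezf1 (adjusted p of 0.850 and 0.856), while bab1, pdm3 and bsh were listed as lower. Over 4 genes listed as glial markers the sum was 4.07 in dFezf1 and 1.31 in WT. Among both lists, svp of the lamina list and gcm of the glial list were higher in dFezf1 at an adjusted p of 0.0224 and 6.12e-07. gcm was listed at 0 in WT, at a mean normalized count of 22.0, and its log2 fold change was 0.54 ± 0.59. The glial gene repo had a mean abundance of 0.356 in dFezf1 and 0.162 in WT (adjusted p = 0.966). The glial genes moody and nrv2 had adjusted p of 0.822 and 0.897 per the authors' deposited table. Over 4 photoreceptor markers the sum was 0.150 in dFezf1 and 0.217 in WT, nearly all of it inaD at 0.139 in dFezf1 and 0.217 in WT, while the defining genes ninaE and trp stood at 0 in dFezf1 and in WT per the authors' deposited table. The part of these cells in the results below was not tested.

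Protein kinases transfer phosphate from ATP to serine, threonine or tyrosine residues and so relay signals from receptors and second messengers to the cytoskeleton, to transcription factors and to synaptic proteins. In growing neurons, tyrosine kinases such as Abl act in growth cone guidance, and the JNK and p38 branches of the MAP kinase cascade respond to stress and shape axon growth. Kinases of lipids, inositols, nucleotides and sugars use the same phosphate donor but belong to metabolism and membrane signalling.

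The label of protein kinase holds for part of the set. By textbook knowledge of their products, 101 of the 162 genes encode protein kinases or proteins with a protein kinase fold. The other 61 encode lipid and inositol kinases (16), metabolic and nucleotide kinases (29), scaffolds of the MAGUK family (5), regulatory subunits (4) and further proteins (7), among them the DNA repair protein Fancd2 and the topoisomerase Top1. The category is also incomplete. CaMKII, Src42A, Pak, S6k and the insulin receptor gene InR are protein kinase genes at or above a mean normalized count of 100 that carry no kinase category in the deposited file.

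The 162 genes spanned a wide range of levels. On the scale of the authors' mean abundance, their median was 4.32 in dFezf1 and 3.77 in WT, against 5.55 in dFezf1 and 5.71 in WT over the 5699 other tested genes at or above a mean normalized count of 100. A mean abundance of at least 10 was reached by 41 genes in dFezf1 and by 38 in WT, and 16 genes in dFezf1 and 19 in WT lay under 1. The highest in both groups was nmo, the nemo-like kinase of the MAP kinase family, at 79.6 in dFezf1 and 77.3 in WT per the authors' deposited table. Next in WT came CkIIbeta, the regulatory subunit of casein kinase 2, at 45.9 in dFezf1 and 74.6 in WT per the authors' deposited table. CkIalpha, a casein kinase 1 that phosphorylates beta-catenin in the Wnt pathway, had a mean abundance of 64.6 in dFezf1 and 62.5 in WT, and the glycolytic gene Pgk had 44.8 in dFezf1 and 59.7 in WT per the authors' deposited table. With no spread between samples, neighbours in this order cannot be said to differ. Across the 162 genes the log2 mean abundances of the 2 groups had a Spearman correlation of 0.827, as a description of genes measured in the same libraries.

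**Figure D1:**
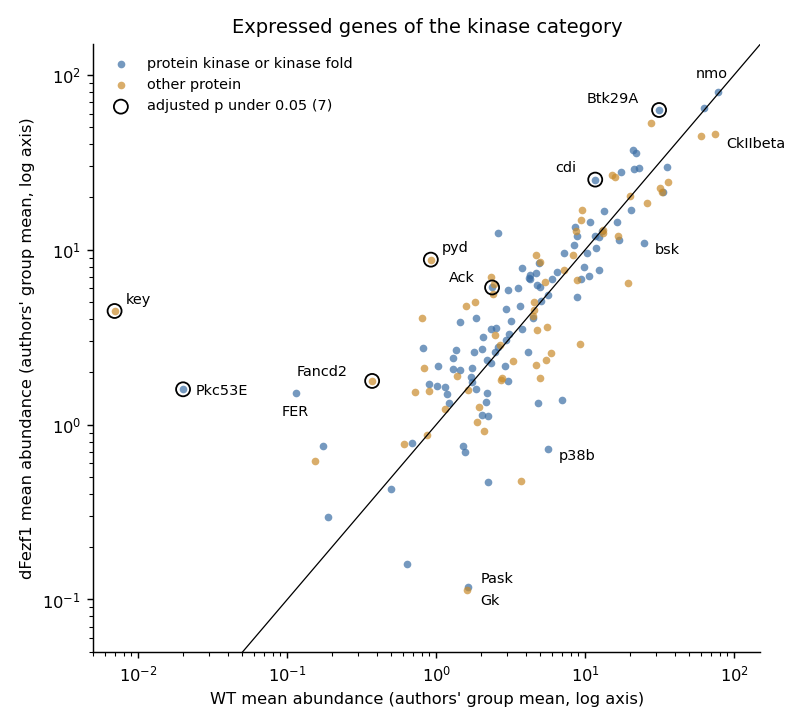
Mean abundance of the 162 genes in dFezf1 (vertical axis) and WT (horizontal axis), both the authors' group means on log axes, with the line of equality. Each point is a gene, coloured by whether its product is a protein kinase. Circled are the 7 genes with an adjusted p under 0.05, all above the line; key and Pkc53E stand at the left edge, with WT means of 0.00693 and 0.0200.

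Which kinase genes L3 neurons express differently without functional dFezf was asked of the deposited comparison. Of the 162 genes, 7 were higher in dFezf1 at an adjusted p under 0.05 per the authors' deposited table and 0 were lower. Splitting the mean normalized count between the genotypes in proportion to the group means puts 18 members at the minimum of 100 in one genotype only, 9 in dFezf1 and 9 in WT. The called genes key and Pkc53E are among the 9 that reach it only in dFezf1, so entry into the set required a difference of them, and the other 5 called genes reach it in both genotypes. The count of 7 higher and 0 lower is therefore a description. That is 4.32% of the set, beside 5.46% of all 5861 tested genes at or above a mean normalized count of 100 and 6.82% of all tested genes. In the higher direction the background was 3.53% and in the lower direction 1.93% of genes at or above a mean normalized count of 100, so the share of kinase genes called lies near the background. Over all tested genes the backgrounds were 4.33% higher and 2.49% lower. Under stricter or other call rules, the background at or above 100 was 3.8% at an adjusted p under 0.01 (5 members), 5.07% with adjustment over those genes alone (7 members) and 5.19% where the 95% interval must also exclude 0 (7 members). At an unadjusted p under 0.05 the authors' deposited table lists 16 genes of the set (9.88%) as higher and 7 (4.32%) as lower, beside 8.43% higher and 4.79% lower of the 5861 genes at or above 100. The 7 called genes are the scaffold gene pyd, the tyrosine kinase genes Btk29A and Ack, the protein kinase C gene Pkc53E, the cofilin kinase relative cdi, the regulatory subunit gene key and the repair gene Fancd2. Only 4 of them, Btk29A, Ack, Pkc53E and cdi, encode protein kinases, which is 3.96% of the 101.

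Btk29A encodes the fly kinase of the Tec family, cytoplasmic tyrosine kinases that bind membrane phosphoinositides. It lies on the minus strand of chromosome 2L, 8258373 to 8301079 in build BDGP6, and its mean abundance was 62.9 in dFezf1 and 31.3 in WT per the authors' deposited table. It rose by 1.07 ± 0.24 (SE) on the log2 scale (adjusted p = 0.000202, DESeq2 column of the authors' deposited table). Its SE was the smallest among the 162 genes, and its mean abundance ranked 3 in dFezf1 and 10 in WT. In the annotation 77 exon bases of Btk29A are shared with the microRNA gene mir-2b-1 on the same strand, for which no value was used here.

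Ack encodes a tyrosine kinase that binds the GTPase Cdc42 (chromosome 3L, 4108186 to 4114157, plus strand). Its mean abundance was 6.08 in dFezf1 and 2.37 in WT, and it rose by 1.34 ± 0.41 on the log2 scale (adjusted p = 0.0185 per the authors' deposited table). Its relative Ack-like had a log2 fold change of 0.21 ± 0.43, with a 95% interval from -0.64 to 1.06 per the authors' deposited table. The difference between these paralogs was not tested.

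Pkc53E is a conventional protein kinase C, a class activated by calcium and diacylglycerol (chromosome 2R, 16924655 to 16945126, plus strand). Its mean abundance was 1.59 in dFezf1 and 0.0200 in WT, and its log2 fold change was 2.58 ± 0.81 (adjusted p = 0.000836) per the authors' deposited table. In WT it ranked 161 of 162 by mean abundance. The gap between the group means is wider than the shrunken fold change, and whether all dFezf1 libraries share it is not known here. The other protein kinase C gene of the set, Pkc98E of the calcium-independent class, had a mean abundance of 9.56 in dFezf1 and 7.24 in WT and a log2 fold change of 0.49 ± 0.37 (adjusted p = 0.604 per the authors' deposited table).

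cdi, center divider, encodes a kinase related to the LIM and testis-specific kinases that phosphorylate cofilin, the actin-severing protein (chromosome 3R, 19044882 to 19094270, minus strand). Its mean abundance was 25.2 in dFezf1 and 11.7 in WT, and it rose by 1.18 ± 0.29 on the log2 scale (adjusted p = 0.000986 per the authors' deposited table). No exon base of cdi, Ack, Pkc53E or Fancd2 is shared with another gene in the annotation.

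Of the called genes that encode no protein kinase, pyd had the highest shrunken log2 fold change of the set, while the gap between the unshrunken group means was wider for key, Pkc53E and FER. pyd encodes the fly ZO-1, a junctional scaffold with a guanylate kinase-like domain (chromosome 3R, 8827068 to 8931896, minus strand). Its mean abundance was 8.77 in dFezf1 and 0.919 in WT, and it rose by 2.78 ± 0.56 on the log2 scale (adjusted p = 2.45e-05 per the authors' deposited table). On the opposite strand 212 of its exon bases are shared with CG8379, for which the log2 fold change was 0.65 (adjusted p = 0.785) per the authors' deposited table. The kit is not stated to mark strand, so reads in the shared bases cannot be assigned to one gene. key, kenny, encodes the regulatory subunit of the IkB kinase complex of innate immune signalling (chromosome 2R, 24785514 to 24787411, minus strand). Its mean abundance was 4.46 in dFezf1 and 0.00693 in WT, the lowest WT level of the set, and its log2 fold change was 1.73 ± 0.78 (adjusted p = 0.0019) per the authors' deposited table. The shrunken fold change of key understates the gap between its group means, whose log2 ratio was 5.41 with a pseudocount of 0.1, and its test statistic of 3.94 is larger than the fold change over its SE. Whether all dFezf1 libraries share that gap is not known here. key shares 29 exon bases with CG3589 on the opposite strand, and CG3589 had an adjusted p of 0.986 per the authors' deposited table. Fancd2, of the Fanconi anaemia pathway of DNA crosslink repair, had a mean abundance of 1.78 in dFezf1 and 0.371 in WT and a log2 fold change of 1.94 ± 0.61 (adjusted p = 0.0237 per the authors' deposited table).

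**Figure D2:**
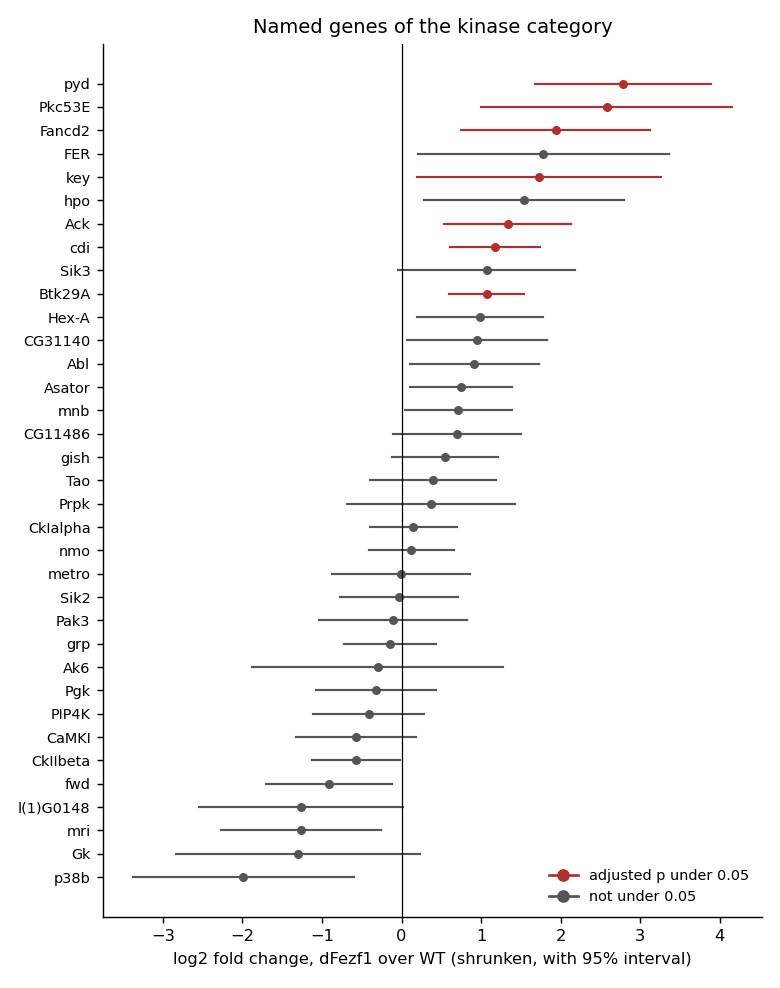
Log2 fold change of dFezf1 over WT with its 95% interval, computed from the deposited standard error, for the 35 named genes of the set, in order of fold change. Red marks an adjusted p under 0.05. The intervals of all 7 called genes lie above 0, from pyd at 2.78 to Btk29A at 1.07, and p38b stands lowest at -1.99.

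Roles were assigned by hand after the values had been seen, so their counts and medians are descriptions. Of the 8 non-receptor tyrosine kinases 2 were higher and 0 lower per the authors' deposited table, beside the background of 3.53% higher and 1.93% lower. Ack, one of the 2, was moved into this role from the cytoskeletal kinases. The median of the role was 0.91 on the log2 scale, the highest of any role. The role holds 6 genes with a positive fold change and 2 with a negative one. Abl, the kinase best known in fly axon guidance and the second most abundant of the set by mean normalized count (15398), had a mean abundance of 37.1 in dFezf1 and 20.9 in WT. Its log2 fold change was 0.92 ± 0.41 with an adjusted p of 0.24 per the authors' deposited table, so it did not pass. FER, of the Fps/Fes family, had a mean abundance of 1.52 in dFezf1 and 0.115 in WT and a log2 fold change of 1.78 ± 0.81 (adjusted p = 0.18 per the authors' deposited table). Fak, the focal adhesion kinase, had a log2 fold change of 0.91 ± 0.49, while the Src gene Src64B had -0.35 ± 0.38 and hop, the fly Janus kinase, had -0.05 ± 0.60 per the authors' deposited table. Src42A, the second Src gene of the fly, which lies outside the category, had a mean abundance of 21.1 in dFezf1 and 25.1 in WT and a log2 fold change of -0.24 ± 0.36 per the authors' deposited table.

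The other kinases of the actin cytoskeleton did not pass. Of 6 genes in that role, cdi was the only one called per the authors' deposited table, beside the background of 3.53% higher. The myosin-regulating kinase genes Drak and Rok had log2 fold changes of 0.63 ± 0.44 and 0.72 ± 0.74, and the p21-activated kinase gene Pak3 had -0.11 ± 0.47 at a mean abundance of 16.9 in dFezf1 and 20.2 in WT. mbt, a p21-activated kinase named for small mushroom bodies in its mutant, had 0.38 ± 0.56 per the authors' deposited table. LIMK1, the LIM kinase proper, lies outside the category and had a mean abundance of 1.58 in dFezf1 and 2.56 in WT and a log2 fold change of -0.49 ± 0.58 (adjusted p = 0.798 per the authors' deposited table). Whether cdi and LIMK1 differ in their change was not tested.

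The 9 kinases grouped as lipid- and calcium-responsive had a median of 0.10 on the log2 scale, with Pkc53E the only gene called per the authors' deposited table. That call stands beside the background of 3.53% higher, and Pkc53E reaches the minimum of 100 only in dFezf1. CaMKI, the calcium- and calmodulin-dependent kinase I, was the most abundant of them in WT, at 21.4 in dFezf1 and 33.1 in WT, with a log2 fold change of -0.57 ± 0.38 (adjusted p = 0.535 per the authors' deposited table). CaMKII, a major synaptic kinase outside the category, had a mean abundance of 11.1 in dFezf1 and 15.4 in WT and a log2 fold change of -0.39 ± 0.41 per the authors' deposited table. Gprk2, a kinase of G-protein-coupled receptors, had 0.10 ± 0.38 per the authors' deposited table. The cyclic AMP-dependent kinase gene Pka-C1, which carries a further category, had a mean abundance of 20.0 in dFezf1 and 17.1 in WT and a log2 fold change of 0.39 ± 0.34 per the authors' deposited table.

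The MAP kinase cascade is held by 17 genes of the set, of which 0 were called per the authors' deposited table. At an unadjusted p under 0.05 the authors' deposited table lists 3 of the 17 (17.6%), beside 13.2% of the 5861 genes at or above 100. All 3 had a negative fold change, beside 4.79% lower among those 5861 genes. They are bsk, p38b and Tak1. bsk, the fly JNK, had a mean abundance of 10.9 in dFezf1 and 24.6 in WT and a log2 fold change of -1.02 ± 0.37 (adjusted p = 0.0833). p38b, a p38 kinase, had a mean abundance of 0.722 in dFezf1 and 5.63 in WT and a log2 fold change of -1.99 ± 0.71, the lowest of the 162 genes (adjusted p = 0.0662 per the authors' deposited table). Tak1, a kinase at the head of these branches, had a mean abundance of 1.38 in dFezf1 and 6.97 in WT and a log2 fold change of -1.49 ± 0.76 (adjusted p = 0.339 per the authors' deposited table). These 3 genes did not pass the adjusted threshold, and bsk, p38b and Tak1 were singled out here after their values were seen. p38b shares 381 exon bases with CG16890 on the opposite strand, so its reads are uncertain.

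Over the 17 genes, 10 fold changes were positive and 7 negative. The second p38 gene of the set, p38a, had a log2 fold change of 0.14 ± 0.80, and Mekk1, a kinase upstream of the stress-activated branches, had 0.93 ± 0.72 per the authors' deposited table. wnd, the fly DLK that acts in axon injury and synaptic growth, and slpr, a mixed-lineage kinase, both upstream of JNK, had log2 fold changes of 0.49 ± 0.44 and 0.54 ± 0.39 per the authors' deposited table. Mkk4, a JNK kinase, had -0.44 ± 0.61, and lic, the p38 kinase kinase, had 0.34 ± 0.75 per the authors' deposited table. hep, the other JNK kinase, carries a further category and had a log2 fold change of 0.98 ± 0.55 (adjusted p = 0.418 per the authors' deposited table). puc, the JNK phosphatase and a transcriptional target of the pathway, had a mean abundance of 8.16 in dFezf1 and 6.93 in WT and a log2 fold change of 0.29 ± 0.49 (adjusted p = 0.869 per the authors' deposited table). In the ERK branch, the Raf gene phl had 0.72 ± 0.47, the MEK gene Dsor1 had -0.23 ± 0.58 and the ERK gene rl, which carries a further category, had 0.76 ± 0.31 (adjusted p = 0.162) per the authors' deposited table. nmo differed little, with a log2 fold change of 0.12 ± 0.27 and a 95% interval from -0.41 to 0.66 per the authors' deposited table.

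**Figure D3:**
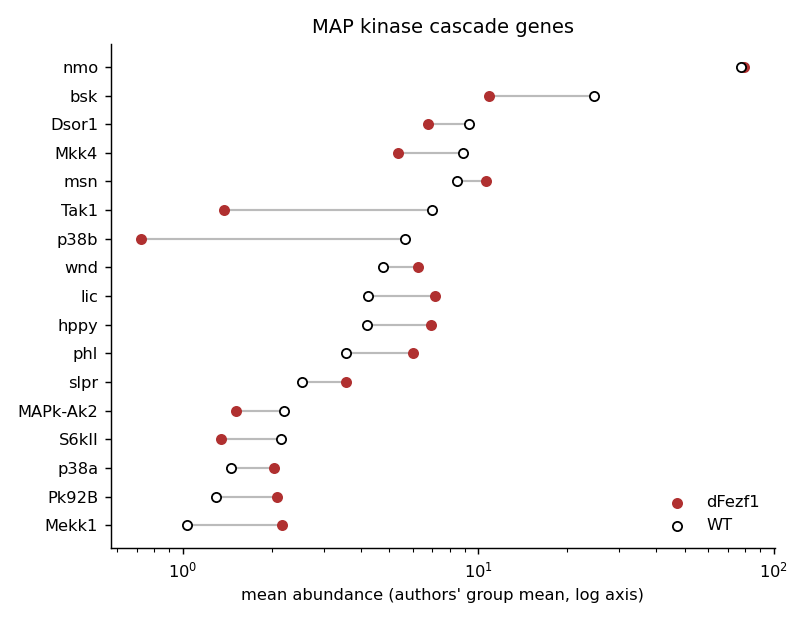
Mean abundance of the 17 MAP kinase cascade genes on a log axis, with dFezf1 as filled and WT as open points, ordered by the WT level. The points of p38b, Tak1 and bsk lie apart with dFezf1 on the low side, and those of nmo nearly coincide at 79.6 in dFezf1 and 77.3 in WT. None had an adjusted p under 0.05.

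In the group of Ste20 and NDR kinases, all 6 genes had a positive fold change and 0 were called per the authors' deposited table. Among other genes at or above 100, 55.5% in the intermediate range of exon length given below were positive, and 74.3% in the longest. GckIII, a Ste20 kinase outside the category, had a log2 fold change of -0.46 ± 0.60 per the authors' deposited table. hpo, the kinase that names the Hippo growth control pathway, had a mean abundance of 2.76 in dFezf1 and 0.816 in WT and a log2 fold change of 1.54 ± 0.64 (adjusted p = 0.171 per the authors' deposited table). hpo shares 130 exon bases with Rep on the opposite strand. Tao, which activates hpo, had 0.40 ± 0.40, and trc, an NDR kinase that shapes dendrites, had 0.09 ± 0.53 per the authors' deposited table. wts, the kinase downstream of hpo, carries a further category and had 0.27 ± 0.61 per the authors' deposited table.

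Casein kinase 1 genes likewise had 5 of 5 positive fold changes and 0 calls per the authors' deposited table. Positive shares of other genes in the intermediate and longest ranges of exon length were 55.5% and 74.3%. Asator, a tau-tubulin kinase, had a mean abundance of 13.4 in dFezf1 and 8.47 in WT and a log2 fold change of 0.75 ± 0.33 (adjusted p = 0.218 per the authors' deposited table). gish, the casein kinase 1 gamma gene, had 0.55 ± 0.34, and dco, the circadian kinase doubletime, had 0.24 ± 0.45 per the authors' deposited table. CkIalpha had 0.15 ± 0.28, with a 95% interval from -0.40 to 0.69 per the authors' deposited table. sgg, the fly GSK3, which works beside these kinases in Wnt signalling and carries a further category, had 0.48 ± 0.42 per the authors' deposited table.

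In these sorted samples the 16 cell cycle and genome kinases had a median mean abundance of 2.65 in dFezf1 and 2.33 in WT. Of them 0 were called per the authors' deposited table, and which cells hold these transcripts was not tested. grp, the checkpoint kinase Chk1, was the most abundant in WT, at 29.8 in dFezf1 and 35.6 in WT, with a log2 fold change of -0.15 ± 0.29 per the authors' deposited table. grp shares exon bases with 3 other genes. The Cdc7 gene l(1)G0148 had a mean abundance of 1.33 in dFezf1 and 4.82 in WT and a log2 fold change of -1.26 ± 0.65 (adjusted p = 0.359 per the authors' deposited table). Cdk2 had a mean abundance of 12.5 in dFezf1 and 2.60 in WT, yet its log2 fold change of 1.08 ± 0.81 had an adjusted p of 0.583 per the authors' deposited table. Cdk5, the kinase active in neurons, had -0.03 ± 0.43, and its activator Cdk5alpha, the fly p35, had -0.39 ± 0.34 per the authors' deposited table. mnb, a DYRK kinase also needed for neural proliferation, had a mean abundance of 27.6 in dFezf1 and 17.4 in WT and a log2 fold change of 0.72 ± 0.34 (adjusted p = 0.291), and its relatives Dyrk2 and Dyrk3 had -0.48 ± 0.39 and -0.11 ± 0.38 per the authors' deposited table.

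Kinases of growth and energy sensing were centred near 0 in fold change, with a median of 0.09 over 10 genes and 0 calls per the authors' deposited table. Tor, the target of rapamycin, had a log2 fold change of -0.0022 ± 0.57, at a mean abundance of 1.86 in dFezf1 and 1.72 in WT. Akt1 had 0.29 ± 0.43, AMPKalpha, the energy sensor, had 0.37 ± 0.70 and its activating kinase lkb1 had 0.09 ± 0.80 per the authors' deposited table. Sik2, a salt-inducible kinase, was the most abundant at 14.5 in dFezf1 and 16.3 in WT and had -0.04 ± 0.38, while its paralog Sik3 had a mean abundance of 4.06 in dFezf1 and 1.84 in WT and a log2 fold change of 1.07 ± 0.57 (adjusted p = 0.379 per the authors' deposited table). S6k and InR, outside the category, had 0.70 ± 0.41 and 0.30 ± 0.34 per the authors' deposited table.

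Among 19 trafficking, stress and other kinases 14 (73.7%) had a positive fold change and 0 were called per the authors' deposited table. Positive shares of other genes in the intermediate and longest ranges of exon length were 55.5% and 74.3%. Prpk, of a complex that modifies transfer RNA, was the most abundant in WT, at 29.3 in dFezf1 and 22.9 in WT, with a log2 fold change of 0.37 ± 0.54 per the authors' deposited table. The deadenylase subunit gene CG11486 (PAN3), which encodes a kinase fold without known activity, had 0.69 ± 0.41 (adjusted p = 0.449 per the authors' deposited table). Pink1, of mitochondrial quality control, had 0.91 ± 0.68 at a mean abundance of 7.86 in dFezf1 and 3.75 in WT, and the autophagy kinase gene Atg1 had 0.18 ± 0.37 per the authors' deposited table.

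Lipid and inositol kinases had 9 positive and 7 negative fold changes and 0 calls among 16 genes per the authors' deposited table. CG31140, a diacylglycerol kinase and thus an enzyme that consumes the lipid activator of protein kinase C, had a mean abundance of 53.3 in dFezf1 and 27.7 in WT and a log2 fold change of 0.95 ± 0.45 (adjusted p = 0.281 per the authors' deposited table). The phosphatidylinositol 4-kinase gene fwd had a mean abundance of 2.19 in dFezf1 and 4.64 in WT and a log2 fold change of -0.91 ± 0.41 (adjusted p = 0.232 per the authors' deposited table). PIP4K, a phosphoinositide kinase and the most abundant of the role in WT, had -0.41 ± 0.36 at 24.5 in dFezf1 and 35.8 in WT per the authors' deposited table. Metabolic and nucleotide kinases had 13 positive and 16 negative fold changes and 0 calls among 29 genes per the authors' deposited table. Hex-A, the hexokinase that opens glycolysis, had a mean abundance of 26.8 in dFezf1 and 15.2 in WT and a log2 fold change of 0.99 ± 0.40 (adjusted p = 0.156), whereas Pgk, further down the same pathway, had -0.32 ± 0.38 per the authors' deposited table.

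Of the 5 MAGUK scaffolds only pyd was called per the authors' deposited table, beside the background of 3.53% higher. sdt, a partner of the polarity protein Crumbs, had 0.999 ± 0.51 at a mean abundance of 9.36 in dFezf1 and 4.64 in WT, and metro, of neuromuscular synapses, had -0.01 ± 0.44 at 12.5 in dFezf1 and 13.2 in WT per the authors' deposited table. dlg1, the synaptic MAGUK that carries a further category, had a mean abundance of 65.3 in dFezf1 and 35.3 in WT and a log2 fold change of 0.92 ± 0.37 (adjusted p = 0.137 per the authors' deposited table). Of the 4 regulatory subunits key was called, beside the same background of 3.53% higher, and key reaches the minimum of 100 only in dFezf1. CkIIbeta had -0.57 ± 0.28 (adjusted p = 0.318), beside -0.42 ± 0.32 for the catalytic subunit gene CkIIalpha per the authors' deposited table. mri, a BTB-domain gene and the most abundant of the remaining proteins in WT, had a mean abundance of 6.46 in dFezf1 and 19.2 in WT and a log2 fold change of -1.27 ± 0.51 (adjusted p = 0.15 per the authors' deposited table).

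**Figure D4:**
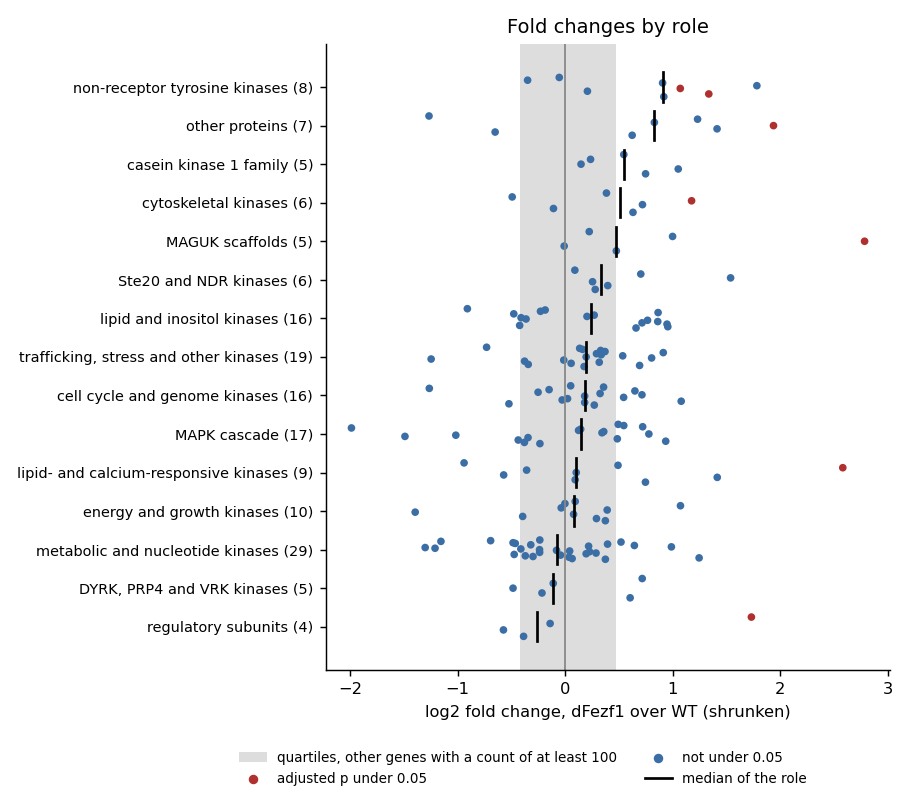
Log2 fold change of dFezf1 over WT for each of the 162 genes by role, with the number of genes in brackets and a black bar at the median of the role. The grey band holds the quartiles of the 5699 other tested genes at or above a mean normalized count of 100, from -0.42 to 0.48. Red points are the 7 genes with an adjusted p under 0.05; tyrosine kinases have the highest median, 0.91, and regulatory subunits the lowest, -0.26.

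As a whole the set leaned toward higher values in dFezf1. A positive fold change was listed for 102 of the 162 genes, or 63.0%, against 2849 of the 5699 other genes at or above a mean normalized count of 100. The sign of the deposited fold change equalled that of the difference between group means in only 152 of the 162 genes. The median log2 fold change of the set was 0.20, with quartiles of -0.25 and 0.65, against a median of 0.00, with quartiles of -0.42 and 0.48, over the others. Taken as log2 ratios of the group means, the median of the set was 0.12 with a pseudocount of 0.1 and 0.08 with a pseudocount of 1. The median of the other genes on that scale is not given here, so these 2 values have no background beside them. Among the 101 protein kinases 70 genes, or 69.3%, were positive with a median of 0.25, and among the 61 others 32 were positive with a median of 0.04. At least 2-fold higher group means in dFezf1 were listed for 25 of the 162 genes and 2-fold lower ones for 18. Among the 5699 others these counts were 853 and 866. All 7 called genes were among the 25 per the authors' deposited table. Of the 200 others called higher, 191 also had group means at least 2-fold higher.

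Exon length moved with this lean. The median exon length in the annotation was 4279 bases for the 101 protein kinases and 3405 for the whole set, against 2375 for the other genes. In the 54 members with the longest exons (4847 to 15772 bases) the median log2 fold change was 0.48, in the 54 of intermediate length (2627 to 4783 bases) 0.18 and in the 54 shortest (711 to 2619 bases) 0.03. Over other genes in the same length ranges the medians were 0.42, 0.11 and -0.16. Of the 7 called genes 4 fell among the longest 54, which is 7.41%, beside 11.3% of the other genes of that length, and 1, key, fell among the shortest. Across the set the log2 fold change had a Spearman correlation of 0.235 with log2 exon length (n = 162 genes), and across the others 0.299 (n = 5620), both given as descriptions of genes that share libraries. The part of exon length in the changes of single genes was not tested.

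**Figure D5:**
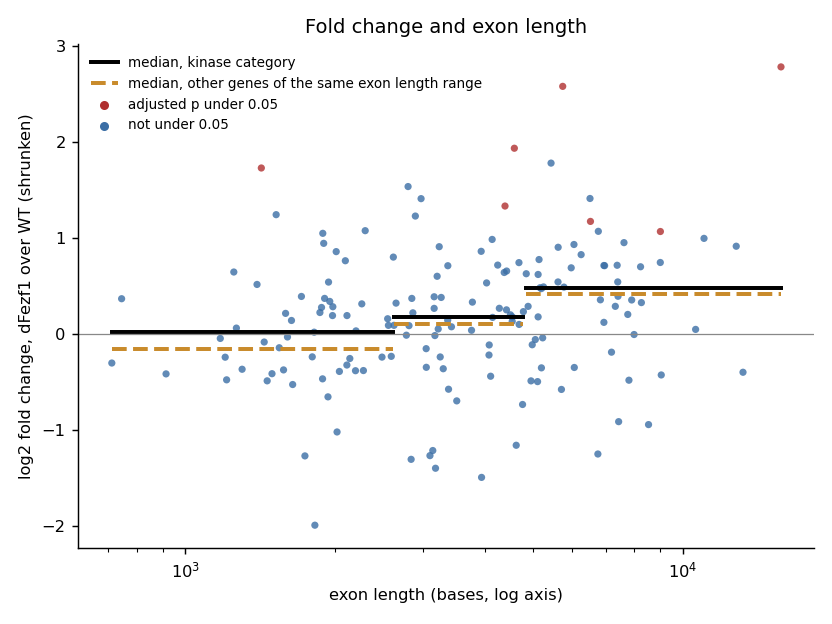
Log2 fold change of dFezf1 over WT against exon length on a log axis for the 162 genes, with red points for an adjusted p under 0.05. Black lines give the median of the 54 shortest, intermediate and longest genes (0.03, 0.18 and 0.48), and dashed lines the median of other genes at or above a mean normalized count of 100 in the same length ranges (-0.16, 0.11 and 0.42).

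The called genes lie on 4 chromosome arms. Of the members, 3 of 39 on 3R, 2 of 38 on 2R, 1 of 20 on 2L and 1 of 32 on 3L were called, and none of 29 on X or 4 on chromosome 4 per the authors' deposited table. On 2L, the arm that holds erm, the members had a median log2 fold change of 0.02 and 7.18% of all tested genes at or above a mean normalized count of 100 were called. On the other arms that background was 4.30% for 3R, 5.72% for 2R, 5.07% for 3L, 5.24% for X and 2.94% for chromosome 4. In all, 73 of the 162 genes share exon bases with another annotated gene, among them pyd, key and Btk29A.

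How firmly the other 155 genes can be placed follows from their standard errors, which over all 162 ran from 0.24 to 0.81 with a median of 0.61. The SE fell with the mean normalized count (Spearman correlation -0.884 across the 162 genes), so small changes were detectable only for abundant kinases. For 11 genes the 95% interval lay within a 2-fold change in either direction, nmo, CkIalpha and grp among them. A gene that did not pass is therefore in most cases not shown to be alike in the 2 genotypes.

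Kinase genes outside the set were counted in the same way. By the authors' deposited table, 56 further genes at or above a mean normalized count of 100 carry kinase activity beside another category, and 2 were called, Drl-2 higher and aPKC lower, both of which the rule leaves out by name. That is 3.57%, beside the background of 5.46%. Without the 11 such genes that the rule names, 0 of 45 were called, and 5 (11.1%) were higher and 1 (2.22%) lower at an unadjusted p under 0.05. The background at or above 100 was 8.43% higher and 4.79% lower. The 45 genes had a median log2 fold change of 0.31 at a median exon length of 5778.5 bases. Beside it, other genes in the longest range of exon length had a median of 0.42. Of 11 listed protein kinases outside the category 0 were called, at an adjusted or an unadjusted p under 0.05. That list first held 6 further names of genes that encode no kinase, and with them the count was 1 of 17, CG3921 (bark), at a log2 fold change of 1.85 ± 0.50 (adjusted p = 0.00457 per the authors' deposited table). They were taken out after their values had been seen. Among the members of the category below a mean normalized count of 100, 69 were tested and 3 called, beside 6.82% of all tested genes. That background spans all levels, and the share for tested genes below 100 alone is not given here. The 3 called are KP78b, higher and listed at 0 in WT, tefu, the fly ATM, lower, and Cks30A, lower and listed at 0 in dFezf1 per the authors' deposited table. The 95% intervals of KP78b (-0.61 to 1.69) and Cks30A (-2.36 to 0.39) include 0. At the limit itself, the genes just inside were FER (100.4), Ak6 (102.2) and Gk (103.1), and those just outside were CG4041 (97.1), ksr (96.3) and aurA (94.5), by mean normalized count.

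Regulators of kinases were taken from a list of cyclins, adaptors, inhibitors and regulatory subunits, of which 56 genes were tested, 2 were higher and 0 lower per the authors' deposited table. That is 3.57%, beside the 6.82% of all tested genes. CycD, the cyclin D partner of Cdk4, had a mean abundance of 3.29 in dFezf1 and 0.0107 in WT and a log2 fold change of 3.93 ± 0.79 (adjusted p = 4.77e-07 per the authors' deposited table). sty, sprouty, an inhibitor of receptor tyrosine kinase signalling, had a mean abundance of 44.6 in dFezf1 and 25.7 in WT and rose by 0.91 ± 0.30 on the log2 scale (adjusted p = 0.0340 per the authors' deposited table). Axn, the scaffold of the kinases that phosphorylate beta-catenin, had -1.24 ± 0.51 (adjusted p = 0.156), and rg, an anchor of protein kinase A, had 0.97 ± 0.41 (adjusted p = 0.177) per the authors' deposited table. The regulatory subunits of protein kinase A, Pka-R1 and Pka-R2, had -0.04 ± 0.65 and 0.17 ± 0.33 per the authors' deposited table.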

How the data were processed

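RNA of the sorted neurons was converted to cDNA by Smart-seq2 and made into Nextera libraries, per the labels' protocols. FastQC, STAR, Salmon, DESeq2 and build BDGP6 are listed in the submitters' processing notes. Per the file headers, the authors' deposited comparison holds a mean normalized count and group means, each a signal that is never negative, a log2 fold change with its standard error, a test statistic, which is a score, and p-values with adjusted p-values. The group means carry no stated unit. Recomputed from the statistic as a normal tail on both sides, the deposited p-value was met within 0.001 in 9387 of 9387 tested genes, and so was the adjusted value by the Benjamini-Hochberg method. In 13 of the 162 genes the fold change over its SE differs from the statistic by 1% or more.

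A further 12 library columns in the deposited files carry codes that match no sample label and were not used, so the authors' comparison took the place of a fit from counts, and depth per sample is not given. The call rule was an adjusted p under 0.05. Intervals of 95% are normal, from the deposited SE. Exon lengths, positions and overlaps come from the BDGP6 annotation. Symbols are those deposited, and 34 of the 162 have another current symbol.

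The members and lists were chosen with earlier results of these data known. The roles, and which genes count as protein kinases, were assigned by hand after the values had been seen, and these roles replaced those first drawn up in the rule for named genes; Ack and CG31140 were among the genes moved between roles. From the list of protein kinases outside the category, 6 names that encode no kinase were taken out after their values had been seen, which changed its count of calls from 1 of 17 to 0 of 11. The rule names the genes called, the 10 with the highest mean normalized count, the most abundant in WT and the smallest p of each role, those beside the limit of 100 and called regulators. Other genes described here, among them relatives and pathway partners, were chosen after their values were seen. The adjustment was tested on simulated data. Computation used Python 3.11.15, pandas 2.3.3, numpy 2.4.6, SciPy 1.17.1 and matplotlib 3.10.9.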

Additional observations from a re-analysis of the deposited data

How the results depend on the processing

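The 7 calls, all higher in dFezf1, became 4 when the members that are not protein kinases were left out, and also 4 (Pkc53E, cdi, Ack and Fancd2) when genes that share exon bases with another gene were left out, an alternative chosen after the data were seen. Both counts are lower because fewer genes remain. The number of kinase regulators called was 1 (CycD) at an adjusted p under 0.01. Within 1.5 times of 7 were the counts at an adjusted p under 0.01 (5), with an interval that excludes 0 (7), with adjustment over genes at or above 100 (7) or above 0 in both groups (7), with a minimum of 50 (9, of which 2 lower), 200 (6) or none (10, of which 2 lower), with the 17 named genes put back (9, of which 1 lower) and with categories given back to the gene identifier (7). The median log2 fold change was 0.20 as deposited, 0.12 and 0.08 as ratios of group means with pseudocounts of 0.1 and 1, and 0.18, 0.23 and 0.18 with a minimum of 50, 200 or none. None of the 35 named members changed its call under those adjustments, and as ratios of group means 5 (pseudocount 0.1) and 2 (pseudocount 1) of them moved by more than their SE, and no called gene turned its sign. No paired analysis was possible because the comparison is the authors' own and the columns carry no replicate numbers. Fits from counts and fits without each replicate were not run, since no library column could be given a sample. Depth per library was not used, so the SE of each gene is the only limit on precision given.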
